A study of Mus musculus with 15 samples.

Results

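The genes of sterol and fatty acid synthesis that are linked to the sterol regulatory element-binding proteins (SREBPs) were followed in microglia of mice given the TREM2 antibody ATV:4D9. The list held 32 of the 32372 genes in the count matrix: 17 enzymes of the sterol pathway, 6 regulators and carriers, and 9 fatty acid genes. It was chosen by function but with earlier results of these data known, so counts over the list are a description. All 32 genes were in the matrix, and all 32 had enough counts to be tested in whole mice. At day 1 after ATV:4D9, 22 of them were higher than in control mice and 1, Acss2, was lower, beside 34.7% of all genes tested higher and 34.6% lower. From day 7 on, none passed the test against the control mice.

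Sterol synthesis begins with acetyl-CoA in the cytosol, runs through mevalonate and the isoprenoid units to squalene, and ends with the conversion of lanosterol to cholesterol. Fatty acid synthesis draws on the same acetyl-CoA, which is carboxylated to malonyl-CoA, built into palmitate and then elongated or desaturated. SREBPs are transcription factors that stay in the endoplasmic reticulum, held there by SCAP and the INSIG proteins while sterols are plentiful, and are cut free to enter the nucleus when sterols fall. SREBP-2, from Srebf2, mainly drives the sterol genes, and SREBP-1c, a product of Srebf1, mainly the fatty acid genes. Microglia are the resident macrophages of the brain, and they take up and break down lipid-rich debris such as myelin.

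Single-cell RNA sequencing was performed on microglia from the cortex and hippocampus of 15 male C57BL/6J mice, aged 3.5 months, of the hTfR KI genotype, in which human transferrin receptor sequence is knocked into the mouse gene. Each mouse received 1 dose of 10 mg/kg. ATV:4D9 joins the anti-TREM2 antibody 4D9 to an antibody transport vehicle (ATV), an Fc that binds the human transferrin receptor sequence and carries antibody into the brain, whereas control mice received ATV:RSV, in which that vehicle holds a control antibody. There were 5 groups of 3 mice, namely control mice taken 1 day after ATV:RSV and treated mice taken 1, 7, 14 or 28 days after ATV:4D9, with 1 mouse of each group in each of 3 processing batches. Every comparison with ATV:RSV therefore used the same 3 day 1 mice, and control mice of the later days were not analysed here. Cells were enriched with CD45 beads, and CD45 is carried by other leukocytes too.

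Each mouse gave 5667 to 7596 cells and 32341960 to 70307384 unique molecular identifiers (UMIs, counts of captured RNA molecules), and the members together gave 14244 to 38869 UMIs per mouse. The day 1 ATV:4D9 cells were deeper, at 9329 ± 507 UMIs per cell (mean ± SD, n = 3) against 6154 ± 439 in ATV:RSV. In these mice 19.6% to 27.4% of cells held a UMI of the cycling genes Mki67 or Top2a, against 0.169% to 0.684% in the other groups. The 8 microglia markers summed to 16199 to 17957 CPM (UMI counts scaled to a common library total) at day 1 of ATV:4D9 and to 19108 to 20804 CPM in ATV:RSV. Astrocyte markers (6 of 6 detected) summed to 129 to 138 CPM at day 1 of ATV:4D9 and 208 to 257 CPM in ATV:RSV, and monocyte markers (5 of 5 detected) to 15.8 to 19.9 CPM and 4.25 to 10.9 CPM. Oligodendrocyte markers summed to 32.4 to 36.8 CPM against 45.9 to 62.0 CPM, and those of border-associated macrophages to 19.8 to 29.7 CPM against 16.2 to 19.6 CPM. Endothelial markers (9.98 to 15.6 CPM against 18.6 to 25.0 CPM) and neuron markers (4.999 to 7.15 CPM against 8.95 to 11.6 CPM) were lower too. The part of depth and of these markers in the results was not tested, beyond the counts given below without marked cells. Cell barcodes were shared between mice for 1283 of 100747 sequences.

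The sequences before the start of the genes were examined for the 25 members in the RefSeq promoter table (build GRCm38.p6); Fdps, Fdft1, Sqle, Stard4, Scd1, Scd2 and Fads1 have no entry. Motifs were searched as letters on both strands in the 250 bases before the RefSeq start. SREBPs bind sterol regulatory elements and act with NF-Y, which binds CCAAT, and Sp1, which binds the GC box GGGCGG. The classical sterol regulatory element TCACNCCAC was present before 1 of 25 members, Hmgcs1, and before 1.22% of 27025 genes. CCAAT stood before 13 of 14 sterol enzymes, 4 of 5 regulators and 2 of 6 fatty acid genes, against 37.5% of all genes. GGGCGG stood before 13 of 14 sterol enzymes, 5 of 5 regulators and 3 of 6 fatty acid genes, against 35.4% of all genes. Of the 25 members, 17 have at least 1 RefSeq start inside their GENCODE vM21 gene, so that part of the bases searched lies within a transcribed region. A match is a stretch of letters and not a measured binding site.

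The 150 bases before the start are shown for Fasn, Ebp and Sc5d, which were higher at day 1, and for Hmgcs1, which was not. They lie at chr11:120824548-120824697 (minus strand), chrX:8193513-8193662 (minus), chr9:42264301-42264450 (minus) and chr13:119690201-119690350 (plus), and all 4 genes are protein coding. None of these stretches overlaps a gene of the GENCODE vM21 annotation. Capitals mark the CCAAT box, the GC box and the sterol regulatory element, read on either strand. In Fasn, CCAAT boxes of both strands overlap in a single run of capitals.
Fasn: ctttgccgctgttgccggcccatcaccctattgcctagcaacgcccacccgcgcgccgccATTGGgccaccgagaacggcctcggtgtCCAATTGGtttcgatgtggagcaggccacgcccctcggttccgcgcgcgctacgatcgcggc
Ebp: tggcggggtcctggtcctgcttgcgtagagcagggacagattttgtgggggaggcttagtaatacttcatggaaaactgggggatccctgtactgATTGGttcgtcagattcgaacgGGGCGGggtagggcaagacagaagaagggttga
Sc5d: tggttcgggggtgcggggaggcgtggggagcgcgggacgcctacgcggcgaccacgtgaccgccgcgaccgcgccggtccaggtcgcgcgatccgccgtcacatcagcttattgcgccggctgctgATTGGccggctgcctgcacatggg
Hmgcs1: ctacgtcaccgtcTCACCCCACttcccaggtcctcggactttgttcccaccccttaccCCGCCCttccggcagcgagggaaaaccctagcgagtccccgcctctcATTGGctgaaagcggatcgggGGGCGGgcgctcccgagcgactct

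Hmgcs1 holds all 3 motifs in these bases: the sterol regulatory element begins 137 bases before the start, the CCAAT box 45 bases before it and the GC boxes 92 and 24 bases before it. Ebp has a CCAAT box 55 bases and a GC box 33 bases before the start. Fasn and Sc5d have CCAAT boxes but no GC box in this stretch.

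The comparison of ATV:4D9 with ATV:RSV at day 1 asks how the antibody changed the microglia within a day. Of the 32 members, 22 (68.8%) were higher and 1 was lower at an adjusted p under 0.05 (limma-voom, Benjamini-Hochberg over 14260 genes). Of all genes tested, 34.7% were called higher and 34.6% lower, so a call was common among all genes. The members' median log2 fold change was 0.54, against -0.05 over all genes. The levels below are CPM after TMM scaling, a correction for the make-up of each library.

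Among the sterol enzymes 14 of 17 were higher and none was lower, beside 34.7% of all genes higher and 34.6% lower. Squalene epoxidase (Sqle), which adds oxygen to squalene and is a rate-limiting step of the later pathway, showed the largest difference. Its level was 0.491, 0.555 and 0.406 CPM in the 3 ATV:RSV mice and 3.32, 3.23 and 3.77 CPM in the 3 ATV:4D9 mice at day 1. All 3 treated mice lay far above the control mice, at 176 to 211 UMIs against 17 to 24. The log2 fold change was 2.80 (SE 0.20, adjusted p = 3.56e-09, limma-voom), or 6.95-fold.

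Idi1, which interconverts the isoprenoid units, stood at 4.17, 4.13 and 5.18 CPM in ATV:RSV and 14.0, 14.1 and 15.9 CPM at day 1 of ATV:4D9, a 3.26-fold difference (log2 fold change 1.71, SE 0.11). The groups did not overlap. Fdps makes farnesyl diphosphate from those units. It stood at 15.9, 15.9 and 16.4 CPM in ATV:RSV and at 42.3, 34.9 and 43.0 CPM in ATV:4D9, with replicate 2 the lowest of the treated mice (log2 fold change 1.31, SE 0.08). Idi1 shares its 3′ end with Gm13502 and Gm35570. Fdps shares its own with Gm3571, Gm7979 and Gm43738, the last of which overlaps Fdps on the same strand. Reads could be split or lost, so the levels of both genes are uncertain.

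Hsd17b7 and Cyp51 act on lanosterol and its products. Hsd17b7, a reductase, measured 1.04, 1.69 and 2.05 CPM in ATV:RSV and 3.32, 3.94 and 4.81 CPM in ATV:4D9 (log2 fold change 1.37, SE 0.25, adjusted p = 0.000129 with limma-voom). The lowest treated mouse was above the highest control mouse. Cyp51, the lanosterol demethylase, measured 5.48, 6.78 and 7.40 CPM in ATV:RSV and 14.6, 15.2 and 17.9 CPM in ATV:4D9 (log2 fold change 1.29, SE 0.13, adjusted p = 2.34e-07 with limma-voom).

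The other sterol enzymes spanned the pathway. Acat2, the cytosolic thiolase of the first condensation, rose by 1.05 on the log2 scale, and Dhcr7, the enzyme of the last step in one arm, by 1.02. Acat2 shares its 3′ end with Acat3. Pmvk and Mvd, which phosphorylate and decarboxylate mevalonate intermediates, rose by 0.94 and 0.69, and Sc5d, Ebp and Fdft1 (squalene synthase) by 0.49, 0.48 and 0.42. Fdft1 lies opposite Ctsb on the other strand, and whether the counting used strand is not given in the sources used here. Other members overlap genes of the other strand too, among them Cyp51 (Akap9), Srebf1 (Rai1) and Acss2.

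Mvk rose by 0.33 and Msmo1 by 0.25, but each call rested on single mice. Without ATV:RSV replicate 1 the log2 fold change of Mvk was 0.19 (adjusted p = 0.168, limma-voom). Without ATV:RSV replicate 2 that of Msmo1 was 0.19 (adjusted p = 0.061), and without ATV:4D9 day 1 replicate 1 it was 0.17 (adjusted p = 0.0577). Hmgcs1, Lss and Nsdhl did not pass the test. Hmgcs1, the synthase that makes HMG-CoA, had a log2 fold change of -0.02 (95% interval -0.16 to 0.12), with 19.1, 19.3 and 19.5 CPM in ATV:RSV and 20.3, 18.2 and 18.6 CPM in ATV:4D9. The interval of Lss, lanosterol synthase, was wider (-0.33 to 0.30). Nsdhl had a log2 fold change of 0.08 (-0.12 to 0.27).

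**Figure D1:**
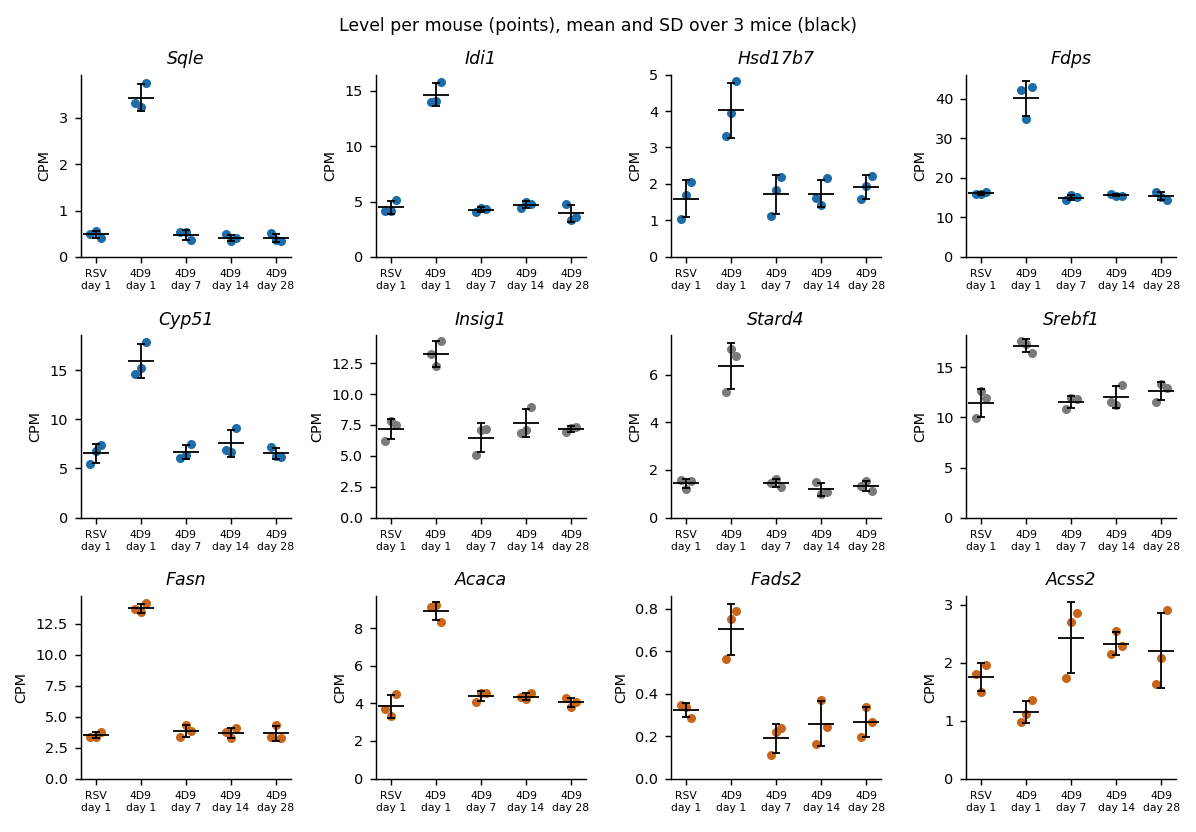
Level in CPM (y axes, each from 0) of 12 members in the 5 groups (x axes; RSV is ATV:RSV, 4D9 is ATV:4D9), with 1 point per mouse and the mean and SD over 3 mice in black; blue marks sterol enzymes, gray regulators and carrier, orange fatty acid genes. Sqle lay at 3.23 to 3.77 CPM at day 1 of ATV:4D9, above every mouse of the other groups, while Acss2 was lowest at day 1.

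Of the 6 regulators and carriers 4 were higher, none was lower, and Scap and Insig2 did not pass the test. Stard4, a soluble carrier that moves cholesterol between membranes, measured 1.57, 1.21 and 1.53 CPM in ATV:RSV and 5.26, 7.06 and 6.76 CPM at day 1 of ATV:4D9. That is a 4.35-fold difference (log2 fold change 2.12, SE 0.18, adjusted p = 3.46e-08 with limma-voom), and no treated mouse overlapped a control mouse. Insig1, which holds SCAP in the endoplasmic reticulum and is itself an SREBP target, measured 6.24, 7.79 and 7.49 CPM and 13.2, 12.2 and 14.3 CPM (log2 fold change 0.89, SE 0.12). Insig2, its relative that is not a classical SREBP target, measured 49.5, 46.9 and 45.1 CPM and 46.3, 44.8 and 47.2 CPM (log2 fold change -0.03, 95% interval -0.14 to 0.08), so the groups overlapped.

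Srebf1 measured 9.92, 12.6 and 11.9 CPM in ATV:RSV and 17.7, 17.4 and 16.4 CPM at day 1 of ATV:4D9, a rise of 0.60 on the log2 scale (SE 0.09). Its 3′ counts do not separate the forms that encode SREBP-1a and SREBP-1c. Srebf2 measured 14.2, 12.98 and 12.9 CPM and 16.9, 16.8 and 17.3 CPM, a smaller rise of 0.34 (SE 0.07). Scap, the escort of the SREBPs, measured 18.5, 20.7 and 17.7 CPM and 18.3, 17.1 and 15.8 CPM. Its log2 fold change of -0.15 had an adjusted p of 0.0749 (limma-voom), and with the batch as a replicate block it was called lower, at -0.15 (adjusted p = 0.0399). It was also called lower without ATV:RSV replicate 3 (-0.19, adjusted p = 0.0378) and without ATV:4D9 day 1 replicate 1 (-0.19, adjusted p = 0.0377).

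The fatty acid genes were divided: 4 of 9 were higher, 1 was lower and 4 did not pass the test. Fasn, the synthase that builds palmitate, measured 3.35, 3.35 and 3.77 CPM in ATV:RSV and 13.7, 13.5 and 14.2 CPM at day 1 of ATV:4D9. The treated mice averaged 13.8 ± 0.36 CPM (SD, n = 3), and the difference was 3.94-fold (log2 fold change 1.98, SE 0.11, adjusted p = 1.51e-10, limma-voom). Acaca, the carboxylase that makes malonyl-CoA for it, measured 3.72, 3.31 and 4.51 CPM and 9.14, 9.21 and 8.34 CPM (log2 fold change 1.23, SE 0.10). Acaca shares its 3′ end with the predicted gene Gm5182.

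Fads2, the desaturase of the first step toward long polyunsaturated fatty acids, was sparse, with 12 to 17 UMIs per ATV:RSV mouse and 36 to 46 per ATV:4D9 mouse at day 1. Its level was 0.348, 0.338 and 0.286 CPM against 0.566, 0.751 and 0.792 CPM (log2 fold change 1.06, SE 0.29, adjusted p = 0.00381 with limma-voom). When cells with a UMI of Mki67 or Top2a were left out, the log2 fold change turned to -0.47 (adjusted p = 0.267). Acly, which supplies cytosolic acetyl-CoA from citrate, rose by 0.16 (SE 0.05, adjusted p = 0.0158). Without ATV:RSV replicate 1 or 3 its log2 fold change was 0.14 in both cases (adjusted p = 0.0521 and 0.0539).

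Acss2, which makes acetyl-CoA from acetate, was the member that was lower. The gene overlaps Mipep-ps and Gm20637 on its own strand and Ggt7, Acss2os and Gss on the other. It measured 1.80, 1.496 and 1.96 CPM in ATV:RSV and 0.974, 1.11 and 1.35 CPM at day 1 of ATV:4D9 (log2 fold change -0.64, SE 0.25, adjusted p = 0.0312, limma-voom). The groups did not overlap, but Acss2 was no longer called when ATV:RSV replicate 1 (-0.61, adjusted p = 0.0746) or 3 (-0.56, 0.0937) was left out. The adjusted p was 0.116 (-0.52) without ATV:4D9 day 1 replicate 1 and 0.0706 (-0.63) without replicate 2.

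Elovl6, the elongase of palmitate, had a log2 fold change of 0.63 with a 95% interval of 0.03 to 1.23 and an adjusted p of 0.057 (limma-voom), from 0.338 to 0.477 CPM in ATV:RSV and 0.597 to 0.702 CPM in ATV:4D9. Its groups did not overlap, yet it missed the threshold. Elovl6 shares its 3′ end with Gm11295. The stearoyl-CoA desaturases Scd1 and Scd2 and the desaturase Fads1 had log2 fold changes of 0.08, 0.17 and 0.04. Fads1 measured 30.6 to 34.8 CPM and 32.8 to 35.4 CPM, with a 95% interval of -0.10 to 0.18. The interval of Scd1, which had few UMIs, ran from -0.91 to 1.08 and excludes little. Scd2 was called higher without ATV:RSV replicate 2 (0.25, adjusted p = 0.0486) and without ATV:4D9 day 1 replicate 3 (0.27, adjusted p = 0.0165).

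**Figure D2:**
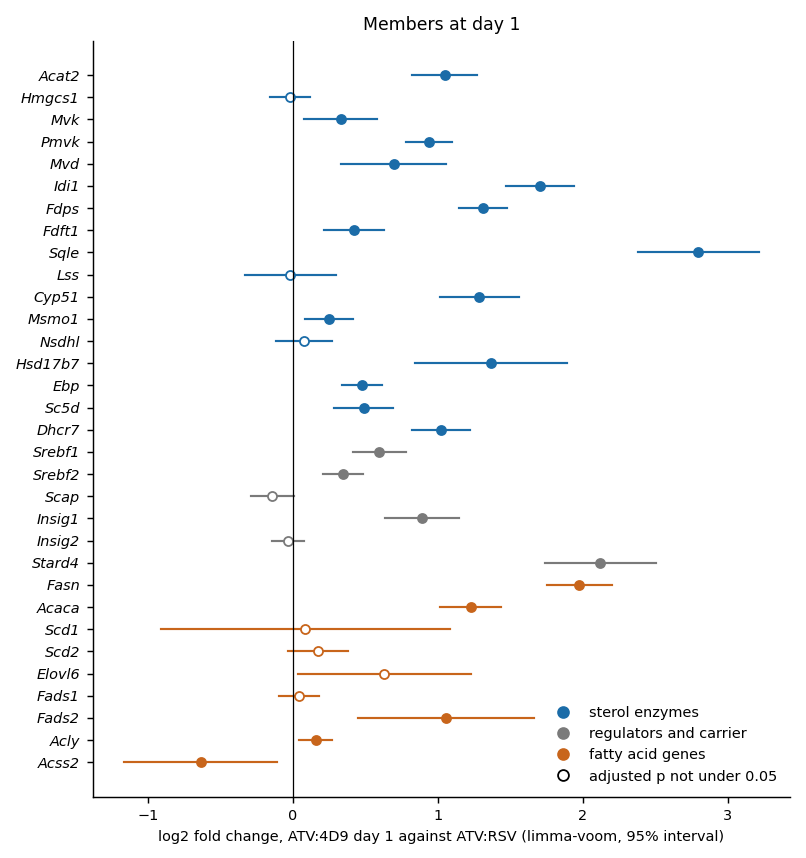
Log2 fold change of each member at day 1 of ATV:4D9 against ATV:RSV (x axis, point and 95% interval from limma-voom) by gene (y axis), colored by branch; open points had an adjusted p of 0.05 or more. The sterol enzymes ran from -0.02 (Hmgcs1) to 2.80 (Sqle) and the fatty acid genes from -0.64 (Acss2) to 1.98 (Fasn).

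Side by side, 82.4% of the sterol enzymes, 66.7% of the regulators and carriers and 44.4% of the fatty acid genes were higher at day 1, beside the 34.7% of all genes given above. A call is harder to reach in sparse genes. In these groups Scd1 had 5 to 12 UMIs per mouse, Elovl6 14 to 43 and Fads2 12 to 46. The part of this in the shares was not tested. The median log2 fold change was 0.69 in the sterol branch, 0.47 in the regulators and 0.17 in the fatty acid branch. The fatty acid median was -0.069 with library size alone, 0.52 per cell, 0.41 without cells with markers of another cell type (where Scd1 failed the filter on low counts and was left out), 0.29 without ATV:RSV replicate 3 and 0.28 without ATV:4D9 day 1 replicate 2, and the sterol median was 0.46 with library size alone and 1.06 per cell. Computed for each treated mouse, the sterol median over the ATV:RSV mean was 0.85, 0.39 and 0.90 and the fatty acid median 0.27, 0.25 and 0.44, so the sterol median was the larger in each of the 3 mice. Replicate 2 had the smallest gap between the branches. The gap was smaller or reversed in other comparisons below. For day 7 against day 1 of ATV:4D9 the sterol median was -0.62 and the fatty acid median -0.53. For cells with against cells without a UMI of Mki67 or Top2a at day 1 of ATV:4D9 they were 0.15 and 0.26. The difference between the branches was not tested, since the members were chosen with results known. Groups did not overlap, with ATV:4D9 higher, for 23 members and for 35.7% of all genes, and with ATV:4D9 lower for Acss2 alone and 35.9% of all genes. For the 22 members called higher the groups did not overlap, which also fixes the order within each of the 3 batches.

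The scale on which RNA is compared moved these values together. TMM scaling compares each gene with the bulk of the others. With library size alone the median of all genes shifted by -0.24, and 17 members were higher and 5 lower, beside 25.9% of all genes higher and 48.8% lower. With values scaled by the number of cells it shifted by 0.36, and 28 members were higher and none lower, beside 49.3% and 13.4% of all genes. Sterol enzymes called higher were 11 with library size alone, 14 with TMM and 16 per cell, and fatty acid genes called higher were 3, 4 and 7. Hmgcs1, Insig2 and Fads1 were called in opposite directions with the scale: per cell their log2 fold changes were 0.34, 0.33 and 0.40, and all 3 were called higher. With library size alone they were -0.26, -0.27 and -0.20, and all 3 were called lower (limma-voom, adjusted p = 0.00247, 0.000164 and 0.0101). Scap and Acss2 were the other members called lower with library size alone, Scap at -0.39 (adjusted p = 0.000233). The members together gave 5.08 ± 0.33 UMIs per cell at day 1 of ATV:4D9 and 2.87 ± 0.15 in ATV:RSV. Without the cells that held 3 or more markers of another cell type, 22 members were again higher and 1 lower, beside 34.8% and 34.7% of all genes.

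The comparisons of the later days with ATV:RSV ask how long the change lasted. No member was called at day 7, day 14 or day 28 (limma-voom), where 3.98%, 0.400% and 0.00% of all genes were called. With the batch as a replicate block the shares were 7.11%, 0.856% and 0.0140%, and with DESeq2 6.11%, 0.926% and 0.0982%. The limma-voom shares also moved with single mice. The day 7 share was 2.28% without ATV:RSV replicate 2, and the day 14 share was 0.00% without ATV:4D9 day 14 replicate 1. At an unadjusted p under 0.05 there were 3 members at day 7 (Dhcr7, Scd2 and Acly), 0 at day 14 and 1 at day 28 (Dhcr7), and edgeR and DESeq2 also called none on any of these days. Of the 14260 genes tested, 2336 at day 7, 770 at day 14 and 571 at day 28 had an unadjusted p under 0.05 (limma-voom). At day 28 edgeR and DESeq2 called 0 and 14 genes. The sterol median log2 fold change was -0.02, 0.04 and -0.02 at the 3 days, and the fatty acid median 0.03, 0.03 and 0.01.

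Sqle measured 0.538, 0.528 and 0.357 CPM at day 7, 0.486, 0.344 and 0.396 CPM at day 14 and 0.506, 0.357 and 0.347 CPM at day 28. These values overlap those of the ATV:RSV mice on every later day. Stard4 ran from 1.29 to 1.62 CPM at day 7, from 1.01 to 1.5 CPM at day 14 and from 1.12 to 1.55 CPM at day 28. Fasn ran from 3.37 to 4.32 CPM, from 3.28 to 4.05 CPM and from 3.26 to 4.32 CPM on these days, and overlapped its levels of 3.35 to 3.77 CPM in the ATV:RSV mice on each of them.

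Dhcr7, the reductase of a last step of the pathway, had the largest log2 fold change of the members at day 28. It measured 4.95, 5.48 and 6.28 CPM in ATV:RSV and 6.96, 7.09 and 6.81 CPM at day 28, where the groups did not overlap, but the adjusted p was 1 (log2 fold change 0.33, limma-voom). Acss2 measured 1.73, 2.70 and 2.85 CPM at day 7 and 2.14, 2.54 and 2.29 CPM at day 14. Its mice at day 14 were all above the ATV:RSV mice, at a log2 fold change of 0.40 (adjusted p = 1). Fads2 was lower than ATV:RSV in every day 7 mouse, at 0.113, 0.218 and 0.238 CPM from 4 to 12 UMIs, without passing the test (log2 fold change -0.76, adjusted p = 0.334). The 95% intervals of the sterol enzymes at day 7 spanned -0.64 to 0.81 in all, so smaller changes in the sparse genes would not have been seen.

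**Figure D3:**
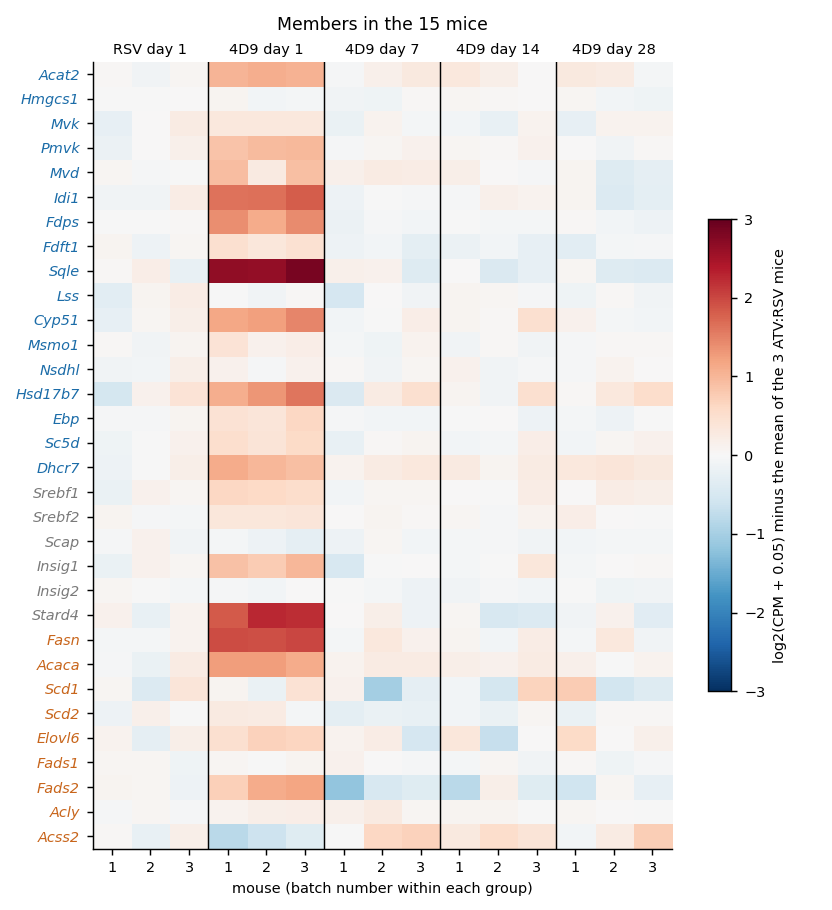
Log2(CPM + 0.05) of the 32 members (rows; names colored by branch) in the 15 mice (columns, by group and batch) minus the mean of the 3 ATV:RSV mice, with red above and blue below that mean. Sqle, Stard4, Fasn and Idi1 are red in the 3 ATV:4D9 day 1 mice and pale elsewhere, and the pale rows include Hmgcs1, Insig2 and Fads1.

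The direct comparison of day 7 with day 1 of ATV:4D9 shares its mice with the comparisons above. Of the 32 members 23 were lower at day 7 and 1, Acss2, was higher (limma-voom), against 33.9% of all genes lower and 33.0% higher. With library size alone 19 were lower and 3 higher (Acss2, Scap and Acly), beside 27.8% and 41.4% of all genes, and the median of all genes moved from 0.02 to 0.17. Per cell 30 were lower, among them Hmgcs1, Lss, Nsdhl, Scap, Insig2, Fads1 and Acly, beside 54.3% of all genes lower, and the median of all genes was -0.44. Neutrophil markers summed to 158 CPM in 1 day 7 mouse, and without cells with markers of another cell type 23 members were again lower and 1 higher, beside 34.0% and 33.2% of all genes. With TMM the 23 were 14 sterol enzymes, 4 regulators and carriers and 5 fatty acid genes. Sqle was 7.32-fold lower (log2 fold change -2.87), Stard4 4.37-fold lower (-2.13) and Fasn 3.61-fold lower (-1.85). Acss2 was 2.15-fold higher (log2 fold change 1.11, SE 0.24, adjusted p = 0.000711). Scd2 and Elovl6, which had not passed the test at day 1, were lower at day 7 than at day 1, by 0.41 and 0.75 on the log2 scale, and Acly did not pass the test (0.00, 95% interval -0.11 to 0.12).

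The call of Elovl6 was lost without ATV:4D9 day 1 replicate 2 (-0.71, adjusted p = 0.0749), day 1 replicate 3 (-0.74, 0.0605) or day 7 replicate 3 (-0.45, 0.232), and without the cells that held a UMI of Mki67 or Top2a (-0.71, 0.0538), with limma-voom. That of Mvd was lost without day 1 replicate 1 (-0.36, 0.0756) or replicate 3 (-0.41, 0.0529), and that of Mvk without day 7 replicate 1 (-0.32, 0.0548). Fads2 was lower at day 7 by 1.82 on the log2 scale with all cells, and at -0.17 (adjusted p = 0.727) without the cells that held a UMI of Mki67 or Top2a.

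The deposited cell table of this time course gives each cell 1 of 3 cluster numbers, 0, 1 and 2, which are used here as given. Clusters 0 and 1 held most cells of ATV:RSV and of the later days, while cluster 2 held 5607 to 6597 cells of each ATV:4D9 day 1 mouse and 74 to 245 cells of every other mouse. The clusters were made from the expression of all genes, so levels are compared between clusters only as a description. At day 1 of ATV:4D9, Idi1 measured 15.1, 14.7 and 16.5 CPM in cluster 2, 4.63, 7.93 and 11.0 CPM in cluster 0, and 6.08, 9.99 and 9.10 CPM in cluster 1. In ATV:RSV the few cells of cluster 2 also had more Idi1, at 10.4, 8.61 and 11.1 CPM from 6 to 16 UMIs per mouse, than those of cluster 0, at 3.80, 4.34 and 5.76 CPM. Fasn at day 1 of ATV:4D9 measured 14.6, 14.0 and 15.02 CPM in cluster 2 and 7.87, 10.4 and 1.00 CPM in cluster 0, the last from 1 UMI.

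Within clusters fewer members were called between ATV:4D9 and ATV:RSV at day 1, from fewer cells. Each ATV:4D9 mouse gave 211 to 383 cells of cluster 0 and 180 to 555 of cluster 1. ATV:RSV mice gave 3477 to 4025 and 2693 to 2993, so fewer calls do not show that fewer members differed. Median log2 fold changes in clusters 0, 1 and 2 were 0.14, 0.27 and 0.29 for the sterol enzymes tested, against 0.69 in whole mice. For the regulators and carriers they were 0.28, 0.03 and 0.01, against 0.47. For the fatty acid genes they were 0.07, -0.03 and 0.29, against 0.17. Fewer members were tested in clusters 1 and 2. Most treated day 1 cells were in cluster 2, so cells were compared after sorting by expression. In cluster 0 all 32 members were tested and 2 were higher, Mvd (log2 fold change 1.02, adjusted p = 0.0303, limma-voom) and Stard4 (1.19, 0.0281), beside 3.77% of all genes higher and 1.32% lower. Stard4 measured 1.52, 1.17 and 1.49 CPM in the ATV:RSV mice and 2.78, 2.97 and 3.01 CPM in the ATV:4D9 mice, the latter from 3 to 6 UMIs each. In cluster 1, 28 members were tested and 3 were higher: Idi1 (0.92, 0.0294), Fdps (0.79, 0.00884) and Dhcr7 (0.86, 0.0211), beside 6.36% of all genes higher and 2.83% lower. With the batch as a replicate block Cyp51 joined them, at 0.76 (adjusted p = 0.0457).

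In cluster 2, where the control mice had 76 to 165 cells each, 19 members were tested. Fdps (0.66, adjusted p = 0.0238, limma-voom) and Ebp (0.33, 0.0247) were higher and Scd2 was lower (-0.61, 0.0249), beside 17.5% of all genes higher and 19.3% lower. Sqle, Stard4 and Acaca were among the 13 members with too few counts to test there. Scd2 measured 31.95, 58.8 and 29.9 CPM in ATV:RSV and 28.6, 27.8 and 22.6 CPM in ATV:4D9, so 1 control mouse stood well above the others.

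Each of these 8 cluster calls was lost without some single mouse. In cluster 0 none remained without ATV:RSV replicate 2 (Mvd 1.04, adjusted p = 0.0521; Stard4 1.07, 0.0723) or ATV:4D9 day 1 replicate 1 (0.66, 0.315; 1.24, 0.101) or replicate 2 (1.13, 0.0724; 1.18, 0.118), and Stard4 was also lost without replicate 3 (1.14, 0.109). Fasn was called there without replicate 3 (1.37, adjusted p = 0.00873, limma-voom). Of all genes in cluster 0, 3.77% were called higher with all mice and 2.92% without ATV:RSV replicate 2. The share was 2.26% and 2.62% without ATV:4D9 day 1 replicates 1 and 2. In cluster 1 Fdps was lost without ATV:4D9 day 1 replicate 1 (0.34, 0.504), as was Dhcr7 (0.90, 0.127), which was also lost without replicate 2 (0.69, 0.182) and ATV:RSV replicate 1 (0.77, 0.054). Idi1 was lost without ATV:RSV replicate 2 (0.84, 0.0699) or 3 (0.91, 0.0531) and ATV:4D9 day 1 replicate 2 (0.74, 0.201) or 3 (0.85, 0.093).

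In cluster 2 none remained without ATV:RSV replicate 1 (Fdps 0.56, adjusted p = 0.21; Ebp 0.39, 0.0647; Scd2 -0.77, 0.0527, limma-voom). In that fit 10.5% of all genes were called higher and 10.1% lower, against 17.5% and 19.3% with all mice. Ebp was also lost without ATV:RSV replicate 2 (0.32, 0.0642) or 3 (0.34, 0.0533). Scd2 was also lost without ATV:RSV replicate 2 (-0.40, 0.195) or ATV:4D9 day 1 replicate 3 (-0.47, 0.0547). At day 7 no member was called in any cluster by limma-voom or edgeR, where 4.28%, 5.76% and 0.693% of all genes were called in clusters 0, 1 and 2. At an unadjusted p under 0.05 (limma-voom) there were 3 of 32, 2 of 28 and 2 of 19 members tested. Of all genes tested there were 2199 of 13329, 2057 of 11989 and 822 of 8511.

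Cells with and without a UMI of Mki67 or Top2a, genes of dividing cells, were compared within the 3 ATV:4D9 day 1 mice, with the mouse as a block. Of 31 members tested (Scd1 was too sparse), 15 were higher in the cells with such a UMI and 1, Mvd, was lower (limma-voom), beside 25.0% of all genes higher and 23.7% lower. Without the replicate block 10 members were higher and none lower, beside 14.0% of all genes higher and 6.65% lower. The higher members were 8 of 17 sterol enzymes, 3 of 6 regulators and carriers and 4 of 8 fatty acid genes tested.

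Fads2 showed the largest difference. It measured 1.49, 1.57 and 1.99 CPM in the cells with a UMI of Mki67 or Top2a, from 26 to 36 UMIs per mouse, and 0.190, 0.221 and 0.139 CPM in the other cells, from 5 to 10 UMIs. That was 8.59-fold (log2 fold change 3.10, SE 0.31, adjusted p = 1.03e-10 with limma-voom). In the other cells no mouse exceeded the minimum count of 10. Fads2 thus passed the filter on low counts only through the cells where it was high, and its difference is a description. Its neighbor in the pathway, Fads1, was 1.28-fold higher, at 38.6, 34.3 and 36.6 CPM against 29.4, 27.0 and 29.6 CPM. The other fatty acid genes that were higher were Acaca (log2 fold change 0.57) and Fasn (0.36), while Scd2, Elovl6, Acly and Acss2 did not pass the test.

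Stard4 measured 7.82, 9.44 and 9.21 CPM in the cells with a UMI of Mki67 or Top2a and 3.77, 4.77 and 4.67 CPM in the others, a 2.00-fold difference. Sqle measured 4.54, 4.195 and 5.29 CPM against 2.50, 2.25 and 2.53 CPM, and Idi1 19.0, 17.9 and 20.7 CPM against 10.7, 9.99 and 11.4 CPM. In all 3 genes the lowest value in the first set of cells was above the highest in the second. Acat2 (log2 fold change 0.76), Cyp51 (0.60), Fdft1 (0.50), Sc5d (0.25), Fdps (0.21) and Ebp (0.09) were also higher, whereas Hmgcs1, Mvk, Pmvk, Lss, Msmo1, Nsdhl, Hsd17b7 and Dhcr7 did not pass the test. Srebf2 (0.15) and Insig1 (0.22) were higher by little.

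The call of Srebf2 was lost without ATV:4D9 day 1 replicate 1 (0.11, adjusted p = 0.241, limma-voom), 2 (0.18, 0.0652) or 3 (0.15, 0.107), and that of Insig1 without replicate 2 (0.22, 0.0513) or 3 (0.20, 0.0528). Mvd was lower by 0.39 on the log2 scale, and at -0.24 (adjusted p = 0.136) without replicate 1. Scd2 was called lower without replicate 1 (-0.17, adjusted p = 0.0303). When a UMI of both Mki67 and Top2a was required, Srebf2 (0.19, adjusted p = 0.0717) and Insig1 (0.17, 0.132) were not called, and Insig2 was called lower (-0.15, 0.0306). A UMI of Mki67 or Top2a is found more easily in a deep cell, so the sets also differ in depth, and the part of depth in these differences was not tested.

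When all cells with a UMI of Mki67 or Top2a were left out of the mice, 21 members were still higher at day 1 than in ATV:RSV and 1 was lower, beside 33.8% of all genes higher and 33.3% lower. Fads2 was the member no longer called. The sterol median log2 fold change was 0.78 in the remaining cells, and the fatty acid median 0.17.

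**Figure D4:**
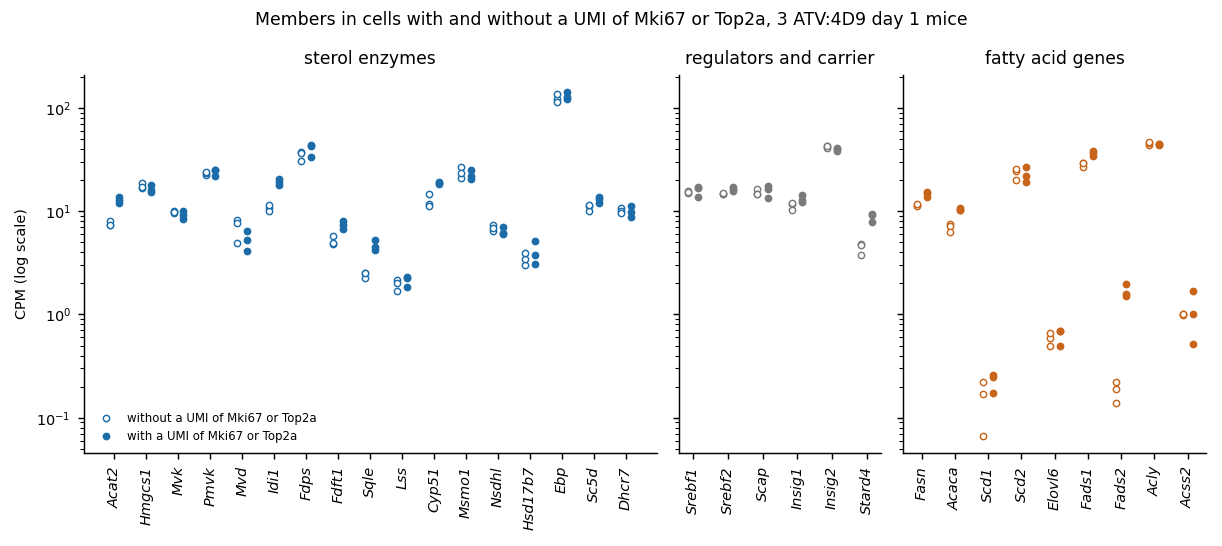
Level in CPM (y axis, log scale) of the members (x axis, by branch) in cells with (filled) and without (open) a UMI of Mki67 or Top2a in the 3 ATV:4D9 day 1 mice, 1 point per mouse. Fads2 lay at 1.49 to 1.99 CPM in the filled points and at 0.139 to 0.221 CPM in the open ones, and Hmgcs1, Acly and Scap overlapped.

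Further genes of the same pathways, 22 on the sterol side and 27 on the fatty acid side, were counted for comparison. Of the 47 tested (not Elovl7 and Acacb), 23 were higher and 14 lower at day 1 (limma-voom), or 48.9% and 29.8%, beside the 34.7% and 34.6% of all genes. On the sterol side 11 were higher and 7 lower, and on the fatty acid side 12 and 7, with medians of 0.16 and 0.07. Their median log2 fold change was 0.15, below the 0.54 of the 32 members.

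Hsd17b12, a reductase of fatty acid elongation, was among the 3 highest. It measured 45.5, 48.3 and 48.0 CPM in ATV:RSV and 138, 143 and 150 CPM at day 1 of ATV:4D9 (log2 fold change 1.60, SE 0.06), so the groups lay far apart.

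The 3 lowest were Lpin1, Idh1 and Acsl1. Lpin1, the phosphatidate phosphatase of glycerolipid synthesis, measured 41.3, 42.0 and 37.6 CPM in ATV:RSV and 13.4, 12.7 and 9.63 CPM at day 1 of ATV:4D9 (log2 fold change -1.75, SE 0.12). Idh1, a cytosolic source of NADPH, fell by 0.76 on the log2 scale, and Acsl1, which activates long-chain fatty acids, by 0.64. In each the groups did not overlap. At day 7 against ATV:RSV 3 of these 47 genes were higher and none lower, beside 2.99% and 0.996% of all genes, and at day 14 and day 28 none was called.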

How the data were processed

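Reads had been mapped to mm10 by the authors with Cell Ranger (version 4.0.0 in the submitters' processing notes, while the study's methods name later versions), and cells had been filtered and clustered before deposit. The deposited matrix holds raw UMI counts of 102043 cells and 32372 genes, with a cell table that gives mouse, batch and cluster. The sums of all 102043 cells equalled that table. The cell table numbers the batches differently from the sample labels, whose numbers were used. The percent of mitochondrial UMIs per cell in the table is the authors' value and was not used in a test. Doublet removal beyond the deposited filter was not attempted, and the 3′ counts were not scaled to gene length, so levels were not compared between genes.

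Counts were summed per mouse, over all cells, within clusters (at least 50 cells) and over cells with or without a UMI of Mki67 or Top2a. Genes were kept with filterByExpr (minimum count 10, total 15) of edgeR 4.0.16, and limma-voom (limma 3.58.1, R 4.3.3) was fitted to 5 group means over all 15 mice with TMM scaling. Genes with a Benjamini-Hochberg adjusted p under 0.05 over all genes tested were called. Tests are two-sided, mice are the replicates, and the code was tested on simulated data. Alternatives used edgeR's quasi-likelihood test, DESeq2 1.42.0, other scalings, no filter, fewer cells, each mouse left out and the batch as a replicate block. Per the labels each batch held every condition, which pairs the mice; deviations of mice of the same batch correlated at a mean r of 0.05 over 30 pairs (range -0.23 to 0.26), against -0.03 over 60 pairs of different batches. Motif windows came from RefSeq, and 3′ ends were compared with BLAST 2.17.0 (at least 91 bases at 98% identity).

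The members and lists were chosen with earlier results of these data known. By the naming rule, values per mouse were given for the regulators and carriers, the 5 sterol enzymes and 4 fatty acid genes with the largest absolute change at day 1, and the 3 highest and 3 lowest other pathway genes, of which some are not reported here. Other members and the sequences shown were picked after their values were seen. Intervals cover the spread between mice.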

Additional observations from a re-analysis of the deposited data

Results flagged for a closer look

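For 24 members the difference between day 7 and day 1 of ATV:4D9 passed its own test (limma-voom, adjusted p under 0.05), so their effects against the shared ATV:RSV mice differed between the days. Of all genes tested 66.9% passed this test. Of the sterol enzymes, the log2 fold change of day 7 over day 1 was -2.87 for Sqle, -1.76 for Idi1, -1.41 for Fdps, -1.23 for Cyp51, -1.20 for Hsd17b7, -0.90 for Acat2 and -0.87 for Pmvk. It was -0.77 for Dhcr7, -0.62 for Fdft1, -0.54 for Ebp, -0.51 for Sc5d, -0.49 for Mvd, -0.38 for Mvk and -0.27 for Msmo1. Among the regulators and the carrier it was -2.13 for Stard4, -1.03 for Insig1, -0.57 for Srebf1 and -0.30 for Srebf2. Among the fatty acid genes it was -1.85 for Fasn, -1.82 for Fads2, -1.02 for Acaca, -0.75 for Elovl6 and -0.41 for Scd2, and 1.11 for Acss2, which alone was higher at day 7.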

How the results depend on the processing

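The number of members called at day 1 was 23 and lay between 20 and 24 over the leave-one-out fits. Of all genes 69.2% were called with all mice and 64.1% to 66.1% over these fits. In all 15 alternatives 16 members were called higher, and the share of all genes that did so was not computed. At day 7, day 14 and day 28 no alternative called a member in whole mice. The sterol median log2 fold change at day 1 (0.69) was 0.46 with library size alone, 1.06 when scaled by the number of cells and 0.56 to 0.93 over the leave-one-out fits. The fatty acid median (0.17) was -0.069 with library size alone and 0.52 per cell, both by the construction of the scaling. It was 0.41 without cells with markers of another type, where Scd1 no longer passed the filter, so that the median was taken over fewer genes. Over the leave-one-out fits it was 0.14 to 0.29, highest without ATV:RSV replicate 3, and the cause of these moves was not tested. Within clusters, the leave-one-out fits called 0 to 2 members in cluster 0, 1 to 2 in cluster 1 and 0 to 3 in cluster 2 at day 1. At day 7 they called 0 to 1 in cluster 0, where Fads2 was lower without ATV:4D9 day 7 replicate 3. In cluster 0 edgeR lost Stard4 (1.06, adjusted p = 0.11) and gained Fasn (1.06, 0.0496), and in cluster 2 it gained Cyp51 (0.81, 0.0273). The cells with a UMI of Mki67 or Top2a gave 10 calls without the replicate block against 16 with it. The batch as a replicate block added Scap at day 1 (-0.15) and Cyp51 in cluster 1 (0.76) and changed no other call.

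Changes of direction in which the value was called before or after were, at day 1, those of Hmgcs1 (0.34) and Insig2 (0.33) per cell, Fads1 (-0.20) and Acly (-0.084) with library size alone, and Fads2 (-0.47) without cells with a UMI of Mki67 or Top2a. Uncalled values near 0 also changed sign, among them Lss in 6 alternatives and Scd1 in 4. For day 7 against day 1 the changes of direction of this kind were those of Scap (-0.37) and Acly (-0.46) per cell. With library size alone Mvk, Fdft1, Msmo1 and Srebf2 were also no longer called at day 1 (adjusted p = 0.517, 0.1, 0.944 and 0.169, limma-voom), and Acss2 was not called per cell (-0.26, 0.376) or without the filter (-0.61, 0.059). For day 7 against day 1, Elovl6 was not called by DESeq2 (-0.74, adjusted p = 0.0776), and library size alone lost Elovl6, Mvk, Mvd and Msmo1. Of 1946 values of single genes under alternatives, 1849 stayed on their side of the threshold, with no change of direction where a call was involved. A minimum of 100 cells left too few ATV:RSV mice in cluster 2 and was not run there. Depth limits Scd1, Elovl6 and Fads2, each under 10 UMIs in some mouse, and the 13 members not tested in cluster 2.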
